A study of Oryza sativa with 60 samples.

Results

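The plastid-encoded genes of rice were followed across tissues and light conditions. They were taken as every entry of the expression table that lies on chromosome Pt, which gave 127 of 38978 entries. Of these, 59 carried a gene symbol and 68 an identifier only, and 94 coincided in start and end with an entry of the RefSeq plastid annotation, which supplied transfer RNA (tRNA) and ribosomal RNA (rRNA) classes. All 29 pseudouridine (Ψ) sites on chromosome Pt, of 9126 sites in the series, were described with them. By class, 12 entries were photosystem II genes, 3 photosystem I, 4 cytochrome b6f, 4 ATP synthase, 7 NDH complex, 4 RNA polymerase, 14 small and 10 large ribosomal subunit and 1 the initiation factor gene infA. A further 36 were tRNA, 8 rRNA and 24 unclassified RNA entries. Well-known plastid genes such as rbcL, atpB, matK and clpP were not analysed here.

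The material came from Oryza sativa cultivar Nipponbare, with no mutant or transgene in any group, and the labels spell plumule as plumulel. The 12 groups were plumule (the embryonic shoot) in light and in dark, seedling at 2 weeks and at 8 days, panicle and straw at heading, flag leaf (10 days after anthesis, DAA, and heading), embryo and endosperm at 10 DAA, and radicle (the embryonic root) in light and in dark. Polyadenylated RNA was profiled by bisulfite-induced deletion sequencing (BID-seq), in which pseudouridines are read as deletions, and each group had 2 expression libraries. Whether these were input or bisulfite-treated libraries is not given by their names, and no label says that the libraries of a group came from separate plants, so p-values measure the spread between libraries, which may be technical.

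The plastid genome is a circular chromosome that descends from a cyanobacterial one. It encodes core subunits of the photosynthetic complexes, a bacterial-type RNA polymerase, part of the plastid ribosome, and the organelle's own tRNAs and rRNAs. Plastid messengers mostly lack the long poly(A) tails of nuclear messengers, so a poly(A)-selected library holds only a residue of them, and a change in level cannot be told apart from a change in tailing. In these bulk samples, fewer cells of a type and less RNA per cell cannot be told apart either.

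Plastid RNA was a small part of every library. Values are TPM, a normalized abundance that divides by entry length, and multiplying TPM by length gave steps that were used as read equivalents. Libraries held between 2109737 and 9006629 read equivalents, of which 124 to 2876 were plastid. Only 4.004% of the 2223 plastid values above 0 were whole read equivalents within 0.02, against 57.7% over all entries. Most plastid values may thus include shared fractions of reads, which was not tested. Genes with near-identical copies elsewhere are therefore uncertain. The 26 entries with a copy in the inverted repeat of the plastid chromosome, among them rps15, rps7, rpl23 and rpl2, cannot be told apart from that copy. A further limit was that 10 named entries cover only an opening exon, including petB with 6 bases, petD with 8 and rpl16 with 9, so that a handful of reads gives a high TPM. These 10 entries held between 12.2% and 47.8% of plastid TPM in a library.

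Radicle in the light replicate 1 stood apart from its partner. Over all entries, the chi-square statistic per gene between the radicle light libraries was 8.01, against 0.996 to 1.14 in the other groups. Replicate 1 correlated with endosperm at r = 0.896 and 0.897 across genes, against 0.739 and 0.739 for replicate 2, but it correlated as highly with radicle in the dark, at 0.909 and 0.913. Over the plastid entries its r was 0.857 and 0.812 with endosperm and 0.824 and 0.852 with radicle in the dark. Replicate 1 was left out of the tests and is shown apart, so radicle in the light is 1 library in them. The plumule light pair (p = 0.612), the plumule dark pair (p = 0.316) and the endosperm pair (p = 0.0703) differed by no more than sampling noise in this chi-square test over 9394 or fewer genes, and in an alternative each was counted as 1 sample.

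Plastid entries took the largest share of TPM in seedlings at 8 days and the smallest in radicle in dark. The share was 0.101% and 0.0956% of TPM in plumule in light, against 0.0286% and 0.0313% in plumule in dark. It was 0.184% and 0.189% in seedling at 2 weeks, against 0.312% and 0.317% in seedling at 8 days. At heading, panicle had 0.189% and 0.201% and straw 0.266% and 0.221%, against 0.261% and 0.243% in flag leaf. Panicle lay below flag leaf in both libraries, whereas straw and flag leaf overlapped. That overlap rests on the opening-exon entries, which held 46.2% and 45.9% of plastid TPM in straw. Without them straw had 0.143% and 0.120% of TPM, below the 0.174% and 0.170% of flag leaf at heading. Flag leaf at 10 DAA had 0.178% and 0.183%. Embryo had 0.0716% and 0.0942%, against 0.0407% and 0.0444% in endosperm. Radicle in light had 0.0439% in replicate 2 and 0.0304% in replicate 1, against 0.0256% and 0.0243% in radicle in dark.

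**Figure D1:**
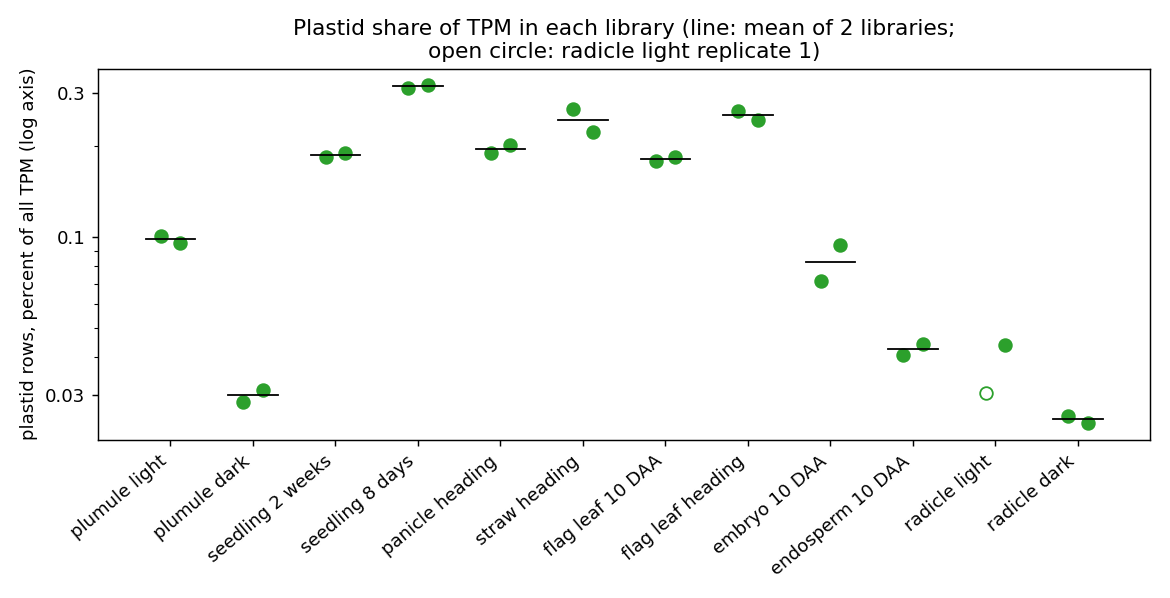
Share of TPM on chromosome Pt in each library, in percent on a log axis, by group. Points are libraries, lines are means of 2 libraries and the open circle is radicle light replicate 1. The 2 libraries of seedling at 8 days are highest, at 0.312% and 0.317%, and those of radicle in dark lowest, at 0.0256% and 0.0243%.

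The share in light was 3.28 times that in dark in plumule, and for the mitochondrial entries, measured in read equivalents, 1.53 times. Flag leaf, averaged over both stages, had 3.45 times the share of seed (embryo and endosperm) and 6.92 times that of radicle. Mitochondrial read equivalents moved the other way there, with ratios of 0.641 and 0.718. Of the 117 plastid entries above 0 anywhere, 64 had their highest group mean in seedling at 8 days.

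The make-up of plastid RNA also differed between tissues. In read equivalents, which do not inflate short entries, photosystem II genes held 58.6% and 58.7% of plastid RNA in flag leaf at 10 DAA, against 29.1% and 30.0% in flag leaf at heading. They held 6.06% and 6.04% in embryo, against 27.3% and 24.2% in endosperm. Genes for the small ribosomal subunit showed the reverse, with 40.5% and 43.3% in embryo against 26.9% and 29.1% in endosperm, and 9.39% and 8.44% in flag leaf at 10 DAA against 22.03% and 22.1% at heading. RNA polymerase genes held 11.01% and 10.8% in plumule in light, against 4.98% and 5.77% in plumule in dark. In each of these pairs the libraries of the groups did not overlap. The rRNA entries stayed below 1% of plastid read equivalents in every library, and none of the 8 passed the filter. The authors state that rRNA remaining after poly(A) selection was covered deeply enough for Ψ mapping. These low values thus need not mean that the libraries held little plastid rRNA.

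**Figure D2:**
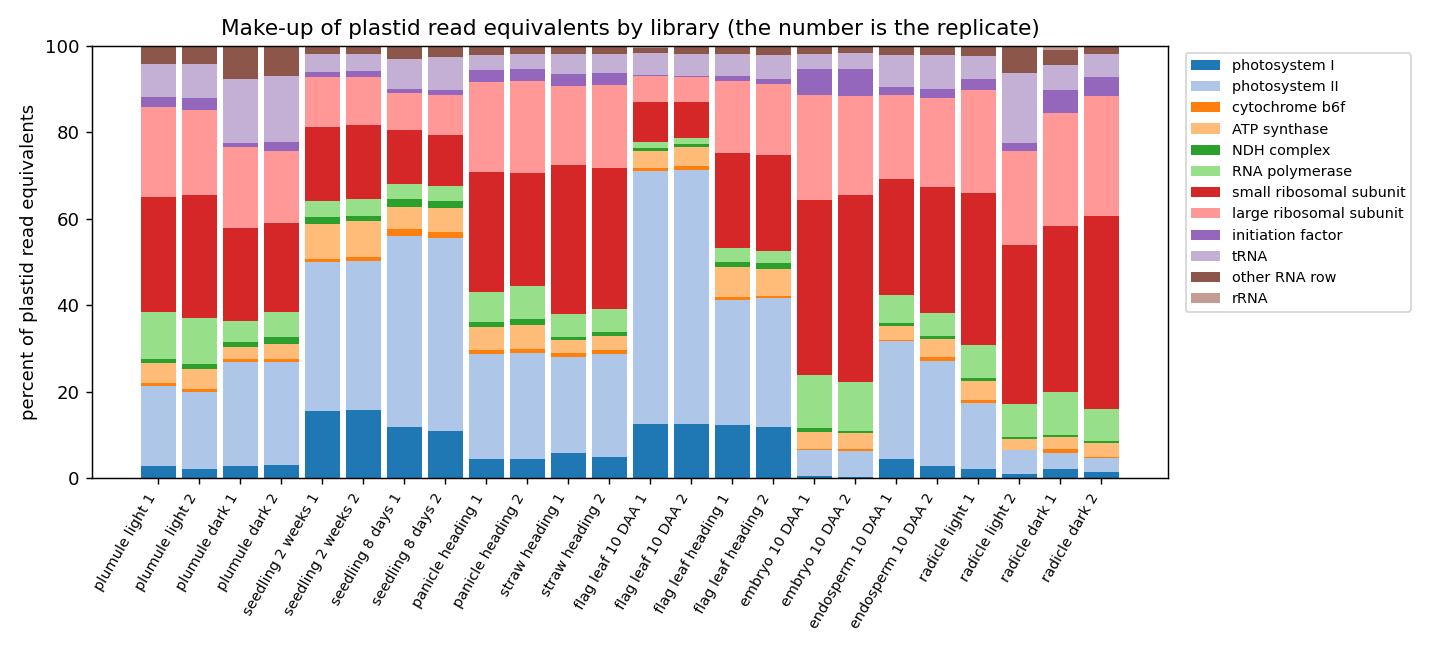
Percent of plastid read equivalents in each functional group, for the 24 libraries; each bar sums to 100%. Photosystem II reaches 58.7% in flag leaf at 10 DAA, and the small ribosomal subunit reaches 44.6% in radicle in dark.

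Expression was compared with limma on log2(TPM + 1) over the 29942 genes that reached 1 TPM in 2 or more libraries, with p-values adjusted by the Benjamini-Hochberg method. Of the 127 plastid entries 98 passed this filter, 57 of them named, and 10 were at 0 in every library. Since an entry that is high in 1 group can pass through that group alone, counts below describe the 98 and not all members. Over all tested genes the median log2 change was 0.12 in the plumule comparison, 0.19 for leaf against seed, 0.16 for leaf against root and 0.18 for panicle against flag leaf, and between -0.02 and 0.08 in the others.

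Whether light changes plastid RNA was first asked in the plumule. In light 53 of 98 plastid entries rose, against 26.2% of all genes tested, and 0 fell, against 10.3% of all genes. At an unadjusted p under 0.05 the count was 59, and voom weights on read equivalents gave 44 that rose and 0 that fell. The median change of the plastid entries was 0.84 on the log2 scale.

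Genes of the expression machinery were prominent among those that rose. All 10 tested large-subunit ribosomal entries rose, as did 11 of 14 small-subunit entries and all 4 RNA polymerase entries. In these and all other counts, both copies of a gene in the inverted repeat, as of rpl2, rpl23, rps7 and rps15, are separate entries. The gene rpoA, for the alpha subunit of the polymerase, had 8.40 and 9.31 TPM in light, against 0.755 and 0.839 TPM in dark, a log2 change of 2.45 ± 0.14 (SE; adjusted p = 3.65e-09). Its partners rpoB, rpoC1 and rpoC2, for the other core subunits, changed less, by 0.85, 0.74 and 1.10 on the log2 scale. The small-subunit gene rps3 had 28.6 and 34.8 TPM in light, against 5.42 and 5.46 TPM in dark (log2 change 2.34 ± 0.17, adjusted p = 5.28e-08). In both rpoA and rps3 the light libraries lay wholly above the dark ones. The initiation factor gene infA rose by 2.25 ± 0.23. The largest change was that of rpl16, with 221 and 211 TPM in light against 16.4 and 18.1 TPM in dark, but its entry is the 9-base exon, which held 11.2 and 9.21 read equivalents in light against 0.83 and 0.85 in dark.

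Photosynthetic genes rose as well. All 4 ATP synthase entries rose, with a median of 1.49 on the log2 scale, against 1.60 for the large and 1.12 for the small ribosomal subunit and 0.98 for the RNA polymerase. All 3 photosystem I entries rose, with a median of 0.65, as did 6 of 12 photosystem II entries (0.86) and 1 of 4 cytochrome b6f entries (1.06). The gene psbB, for the CP47 antenna protein of photosystem II, had 14.4 and 14.8 TPM in light, against 5.42 and 5.35 TPM in dark (log2 change 1.29 ± 0.12, adjusted p = 6.69e-07). The gene psbA, for the D1 reaction centre protein, had 2.97 and 2.41 TPM in light, against 0.909 and 1.11 TPM in dark (0.87 ± 0.13). The ATP synthase alpha gene atpA had 3.13 and 3.32 TPM in light, against 0.644 and 0.578 TPM in dark (1.39 ± 0.14). For all 3 genes the libraries did not overlap. Among genes of the NDH complex, which passes electrons into the plastoquinone pool, 1 of 5 rose, and of the 27 tRNA entries tested 6 did. Because each plumule pair agreed within sampling noise, the pairs were also averaged and counted as 1 library each. The median log2 change was then 0.85 for the plastid entries, against 0.13 over all genes tested.

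The same question in the radicle rests on 1 light library of 124 plastid read equivalents. There 19 of 98 entries rose, against 16.9% of all genes, and 3 fell, against 11.9% of all genes. Those that fell were rps16, rps19 and petE, whose entry is petG in RefSeq. Of the 19, 13 were tRNA entries and 3 were unclassified RNA entries. The tRNA entry EPlORYSAT000373815 had 17.7 TPM in light replicate 2, 0 in light replicate 1 and 0 in both dark libraries, and the 17.7 TPM were 2.17 read equivalents. The tRNA entry EPlORYSAT000373867 had 14.3 TPM in light replicate 2, from 1.78 read equivalents, and was listed at 0 in the other 3 radicle libraries. The RNA entry EPlORYSAT000373805 had 32.7 TPM in light replicate 2 and 0.697 in replicate 1, against 0.648 and 0.639 TPM in dark. These high values thus occurred in 1 library only.

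With replicate 1 in place of replicate 2, an alternative chosen after seeing the data, 12 entries rose and 1 fell, and 3 of the 19 that rose were among them, namely the tRNA entries EPlORYSAT000373825 and EPlORYSAT000373859 and psbA. The gene psbA had 1.76 TPM, or 3.09 read equivalents, in light replicate 2 and 2.46 TPM in replicate 1, against 0.329 and 0.377 TPM in dark (log2 change 1.03 ± 0.16 with replicate 2, adjusted p = 2.21e-04). With both replicates kept, 8 rose and 2 fell, and in a fit of the radicle libraries alone 0 rose and 0 fell. The voom weights gave 7 and 0. With both replicates kept, 4168 of all 29942 genes rose and 3376 fell, so neither plastid count of that fit stood above the whole table. With voom weights, and with replicate 1 in place of replicate 2, the plastid shares called did not lie above those of all genes either. With replicate 2 alone, the share that rose lay near that of all genes, and the share that fell lay below it. The ribosomal gene rps16, with a 40-base exon entry, was listed at 0 in light replicate 2 and at 7.54 TPM in replicate 1. In dark it had 5.74 and 5.77 TPM, and its call as lower turned to a log2 change of 0.34 with replicate 1.

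**Figure D3:**
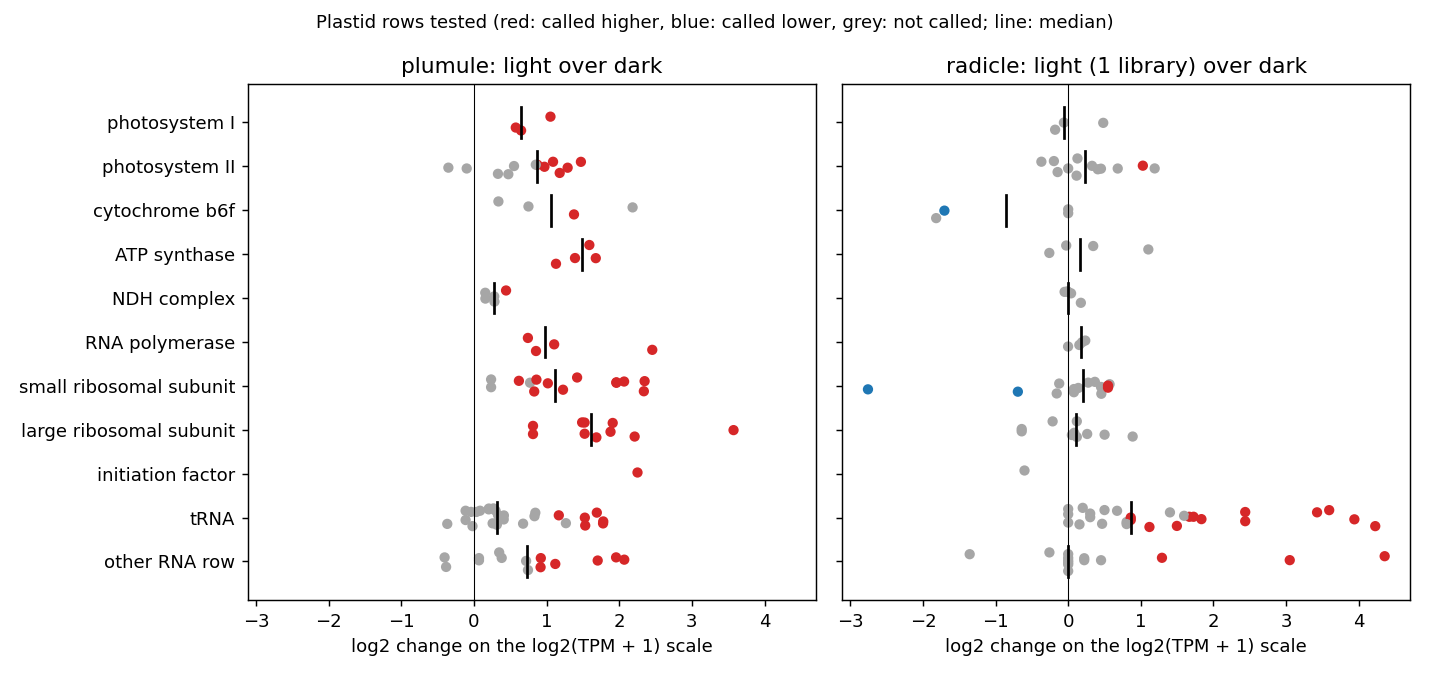
Log2 change of each tested plastid entry by functional group, light over dark in plumule (left) and in radicle (right). Each point is an entry, red where called higher, blue where called lower and grey where not called, and the line is the group's median. All 10 large-subunit ribosomal entries are red in plumule and none is in radicle.

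The difference of the light effects was tested directly. The effect was larger in plumule than in radicle for 37 entries, against 14.5% of all genes, and smaller for 6, against 8.66%. For rpoA the effect in plumule exceeded that in radicle by 2.22 ± 0.22 on the log2 scale (limma adjusted p = 5.51e-06). For rpl22, of the large subunit, the excess was 2.16 ± 0.14. With voom weights the counts were 8 and 3, where 1637 and 2344 of the 29942 genes were called, and the plastid median was 0.09. With radicle replicate 1 in place of replicate 2 the counts were 34 and 2. The spread of the lone radicle light library is taken from the other groups in this test.

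Leaf tissue was next set against seed and root. Against seed, 77 of 98 entries were higher in flag leaf, against 46.9% of all genes, and 3 were lower, against 31.6%. Photosystem and cytochrome b6f entries had the highest medians, of 1.91 for photosystem I, 2.56 for photosystem II and 2.38 for cytochrome b6f. The cytochrome b6f median rests on 4 entries, of which petB and petD are opening exons, and the petB libraries overlapped. The petA entry changed by 0.55, less than that median. The gene psaC, for the iron-sulphur subunit of photosystem I, had 156 and 155 TPM in flag leaf at 10 DAA, and 241 and 221 TPM at heading, against 0 and 0.444 TPM in embryo and 11.04 and 6.31 TPM in endosperm (log2 change 5.83 ± 0.22, adjusted p = 4.64e-13). The gene psbD, for the D2 reaction centre protein, had 71.3 and 78.0 TPM in flag leaf at 10 DAA and 42.7 and 44.8 TPM at heading, against 1.0102 and 0.988 TPM in embryo and 5.67 and 4.25 TPM in endosperm (4.08 ± 0.09). The gene psbC, for the CP43 antenna protein, overlaps psbD in position and changed by 3.76 ± 0.08. In these genes every leaf library lay above every seed library.

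Of the photosystem II entries 11 of 12 were higher in leaf, and all 3 photosystem I, all 4 cytochrome b6f and all 4 ATP synthase entries were. The ATP synthase median was 1.35, and 4 of 5 NDH entries were higher, with a median of 0.46. Ribosomal and polymerase genes showed smaller medians, of 0.52 for the small subunit, 0.94 for the large subunit and 0.23 for the polymerase. The 3 entries that were lower in leaf were infA, rpl22 and rpoC2, with log2 changes of -0.57, -0.25 and -0.26, and in all 3 the leaf and seed libraries overlapped. For infA the values were 4.19 and 2.78 TPM in flag leaf at 10 DAA and 21.5 and 19.5 TPM at heading, against 28.9 and 34.0 TPM in embryo and 5.17 and 5.87 TPM in endosperm. The 2 leaf stages thus lay on either side of endosperm.

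Against root, 81 entries were higher in flag leaf, against 45.6% of all genes, and 2 were lower, against 34.2%. The gene psbD had 0.290 TPM in radicle light replicate 2 and 1.68 TPM in replicate 1, and 0.294 and 0.0969 TPM in radicle in dark, so that leaf exceeded root by 5.55 ± 0.10 on the log2 scale (adjusted p = 6.52e-17). For psaC the difference was 6.37 ± 0.24 (adjusted p = 6.23e-13). All 14 small-subunit and 9 of 10 large-subunit ribosomal entries were higher in leaf, with medians of 1.10 and 1.48, against 3.49 for photosystem II. The entries lower in leaf were EPlORYSAT000373805, described above, and the tRNA entry ENSRNA049761428, listed at 0 in leaf and at 1.82 TPM in radicle light replicate 2 alone. With radicle replicate 1 in place of replicate 2, 85 were higher and 0 lower, and with voom weights 54 were higher and 8 lower.

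**Figure D4:**
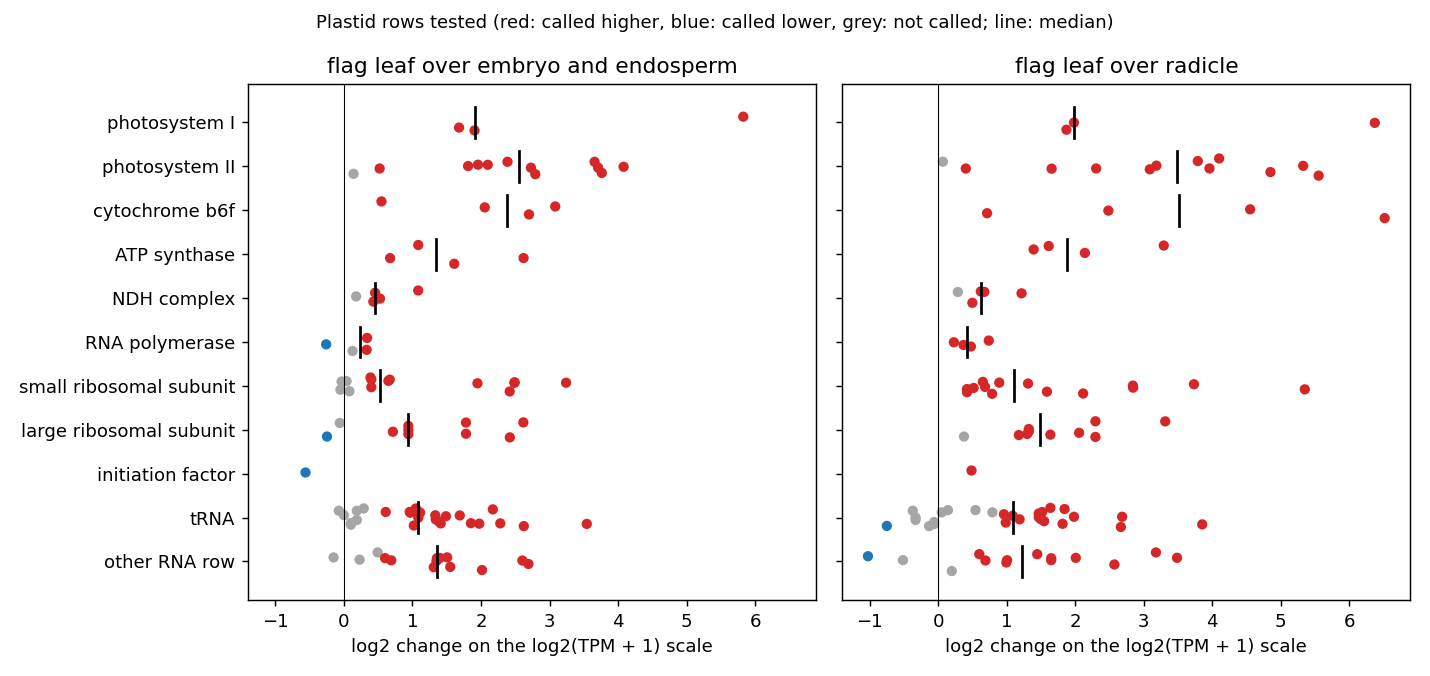
Log2 change of each tested plastid entry by functional group, flag leaf over embryo and endosperm (left) and flag leaf over radicle (right), coloured as called. The photosystem II medians are 2.56 and 3.49, to the right of those of the small ribosomal subunit at 0.52 and 1.10.

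Within the seed, embryo and endosperm differed by class of gene. In embryo 26 entries were higher, against 30.3% of all genes, and 16 were lower, against 29.6%, so neither count stood above the whole table. By class, 12 of 14 small-subunit and 7 of 10 large-subunit ribosomal entries were higher in embryo, while 0 of 12 photosystem II entries were higher and 5 were lower. The gene rpoA had 6.18 and 7.46 TPM in embryo, against 1.15 and 0.864 TPM in endosperm (log2 change 1.96 ± 0.14, adjusted p = 5.83e-09). In the other direction psbA had 1.37 and 1.77 TPM in embryo, against 5.68 and 5.44 TPM in endosperm (-1.36 ± 0.13, adjusted p = 1.85e-07). Libraries of the groups did not overlap for these genes. With voom weights 22 entries were higher and 6 lower.

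The seedling comparison asked how plastid RNA differs with age. At 2 weeks 8 entries were higher than at 8 days, against 31.0% of all genes, and 56 were lower, against 27.3%. Of the photosystem II entries 9 were lower, 1 was higher and 2 did not pass the test, with a median of -1.19, and of the photosystem I entries 2 were lower and 1 was higher. The gene psbB had 12.1 and 12.8 TPM at 2 weeks, against 117 and 116 TPM at 8 days (-3.12 ± 0.12, adjusted p = 6.15e-12). The reaction centre gene psaA of photosystem I had 1.52 and 1.48 TPM at 2 weeks, against 16.9 and 15.0 TPM at 8 days (-2.76 ± 0.14). The photosystem entries that were higher were psaC and psbM. The gene psaC had 234 and 261 TPM at 2 weeks, against 50.9 and 51.7 TPM at 8 days (2.25 ± 0.31, adjusted p = 1.29e-05), and psbM, for a small photosystem II subunit, rose by 0.88 ± 0.20.

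The largest differences with age were in tRNA entries of the inverted repeat. EPlORYSAT000373862 had 0.357 and 1.05 TPM at 2 weeks, against 66.5 and 73.4 TPM at 8 days (-5.41 ± 0.32). EPlORYSAT000373790 had 3.96 and 3.57 TPM at 2 weeks, against 89.6 and 78.1 TPM at 8 days (-4.15 ± 0.48). Both have a copy in the inverted repeat from which their reads cannot be told apart. All 5 tested NDH entries were lower at 2 weeks, whereas 7 of 10 large-subunit ribosomal entries did not pass the test.

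At heading, panicle and flag leaf differed in 42 entries. In panicle 17 entries (17.3%) were higher, against 40.7% of all genes, and 25 (25.5%) were lower, against 25.5%. The first count thus lay below the share over the whole table, and the second was at that share. Quantile normalization gave 9 and 43, so this split depends on the scaling. The gene rpoA had 19.1 and 19.7 TPM in panicle, against 7.64 and 6.76 TPM in flag leaf (1.32 ± 0.14, adjusted p = 5.17e-07). The gene psbA had 4.02 and 3.86 TPM in panicle, against 12.05 and 11.3 TPM in flag leaf (-1.36 ± 0.13). The gene psbB was higher in panicle, with 24.2 and 25.3 TPM in panicle against 10.2 and 9.59 TPM in flag leaf (1.24 ± 0.12).

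Straw had 8 entries higher than flag leaf, against 31.6% of all genes, and 36 lower, against 28.9%. All 3 photosystem I entries and 7 of 12 photosystem II entries were lower. The gene rps2, of the small ribosomal subunit, had 32.3 and 29.4 TPM in straw, against 11.2 and 9.97 TPM in flag leaf (1.46 ± 0.14, adjusted p = 2.56e-07). The gene atpA had 6.03 and 5.05 TPM in straw, against 20.9 and 18.8 TPM in flag leaf (-1.68 ± 0.14). These panicle, straw and 10 DAA comparisons share the flag leaf libraries at heading.

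Within the flag leaf, 12 entries were higher at 10 DAA than at heading, against 16.8% of all genes, and 30 were lower, against 21.6%. All 10 large-subunit ribosomal entries were lower at 10 DAA, with a median of -1.67, and 8 of 14 small-subunit entries were. The gene rpl22 had 11.3 and 12.6 TPM at 10 DAA, against 60.1 and 56.9 TPM at heading (-2.20 ± 0.09, adjusted p = 2.78e-11). The gene infA had 4.19 and 2.78 TPM at 10 DAA, against 21.5 and 19.5 TPM at heading (-2.28 ± 0.23). Photosystem II entries rose in 6 cases and fell in 1. The gene psbB had 37.0 and 37.5 TPM at 10 DAA, against 10.2 and 9.59 TPM at heading (1.81 ± 0.12, adjusted p = 7.37e-09). Both photosystem I reaction centre genes rose, psaA by 0.99 ± 0.14 and psaB by 0.82 ± 0.13.

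The Ψ sites gave a second readout of plastid RNA. For each tissue a site has a single fraction, made by the authors from summed replicates, so there is no replicate error, the depth is unknown and no test was made. The 29 sites were 0.318% of all sites in the series. Of them 14 lay in tRNA entries, 1 in an unclassified RNA entry, 3 in named protein-coding entries and 11 in no entry of the table. None lay in rRNA entries. The authors do report pseudouridines in the large-subunit rRNA of the rice chloroplast, so this list does not show that plastid rRNA lacks them.

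A set of 10 sites lay exactly 19 bases from the 3′ end of an RNA entry. Their surroundings are shown because they share a core that tRNAs carry in the loop of the T arm, where a pseudouridine is a near-universal modification. The capital marks the modified uridine, written as T at the DNA level, and the sequences run 5′ to 3′ with 3 bases on each side.
EPlORYSAT000373840: ggtTcga
EPlORYSAT000373797: gatTcga
EPlORYSAT000373810: ggtTcaa

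The first of these heptamers occurred at 7 of the 29 plastid sites and at 106 of all 9126 sites, so it made up 24.1% of plastid sites and 1.16% of all sites. The third occurred at 3 plastid sites and 59 sites in all, and the second at 1 and 5. The mean fraction over tissues of the 10 sites lay between 64.0% and 98.0%, with a median of 86.0%. The other 19 sites ranged from 1.08% to 85.04% with a median of 37.8%, so the ranges overlapped. The overlap rests on a further site with the ggtTcga heptamer, in the trnK entry EPlORYSAT000373869. It lay 29 bases from the 3′ end and averaged 85.04%. The next highest of the 19 averaged 59.99%.

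Fractions at the T-arm position were mostly high, with exceptions. A value of 0% stood at position 11521 in plumule in light, at 94100 in radicle in dark, at 95049 in embryo, and at 120069 in seedling at 2 weeks and in straw, and the site at 7847 had 47.0% in radicle in dark. None of these low values passed the authors' filter, and some of the high values at this position did not pass either. Positions 95049 and 120069 lie in copies of 1 tRNA entry, whose reads cannot be told apart. In embryo 120069 had 65.0%, and in straw 95049 had 68.3%, so the copies disagreed where 1 of them was at 0%. The most even sites were those of EPlORYSAT000373840 and EPlORYSAT000373797. The site in EPlORYSAT000373840, at position 16286 of chromosome Pt on the plus strand (IRGSP-1.0), had 100% in 8 tissues, 97.6% in straw, 95.3% in endosperm and in radicle in dark, and 87.2% in embryo. The site in EPlORYSAT000373797, at position 15704, ranged from 83.1% in plumule in dark to 100% in seedling at 2 weeks and radicle in dark. The EPlORYSAT000373797 entry held another site 32 bases from its 5′ end, at position 15681, which averaged 54.0%. At positions 94100 and 121018, in copies of 1 tRNA entry in the inverted repeat, the means were 84.95% and 97.5%, and for these copies the reads cannot be told apart.

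Sites outside the T arm included a pair with the same heptamer. A site with the heptamer gagTatc occurred inside the RefSeq span of atpF, at position 33851, and another inside that of rpl16, at position 77814; neither lies in an entry of the expression table. The atpF site had 46.5% in plumule in light against 0% in plumule in dark, and 74.1% in seedling at 2 weeks against 69.6% at 8 days. The rpl16 site had 51.5% in plumule in light against 100% in plumule in dark. These opposite differences come from single pooled values, and neither site passed the authors' filter in plumule in light, while plumule in dark has no flag. In the coding entry of rpl14, for a large-subunit ribosomal protein, the site at position 77492 had 94.0% in seedling at 2 weeks against 95.3% at 8 days. It had 58.4% in flag leaf at 10 DAA against 29.4% at heading. The value at heading did not pass the authors' filter, while the other rpl14 values given here did.

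**Figure D5:**
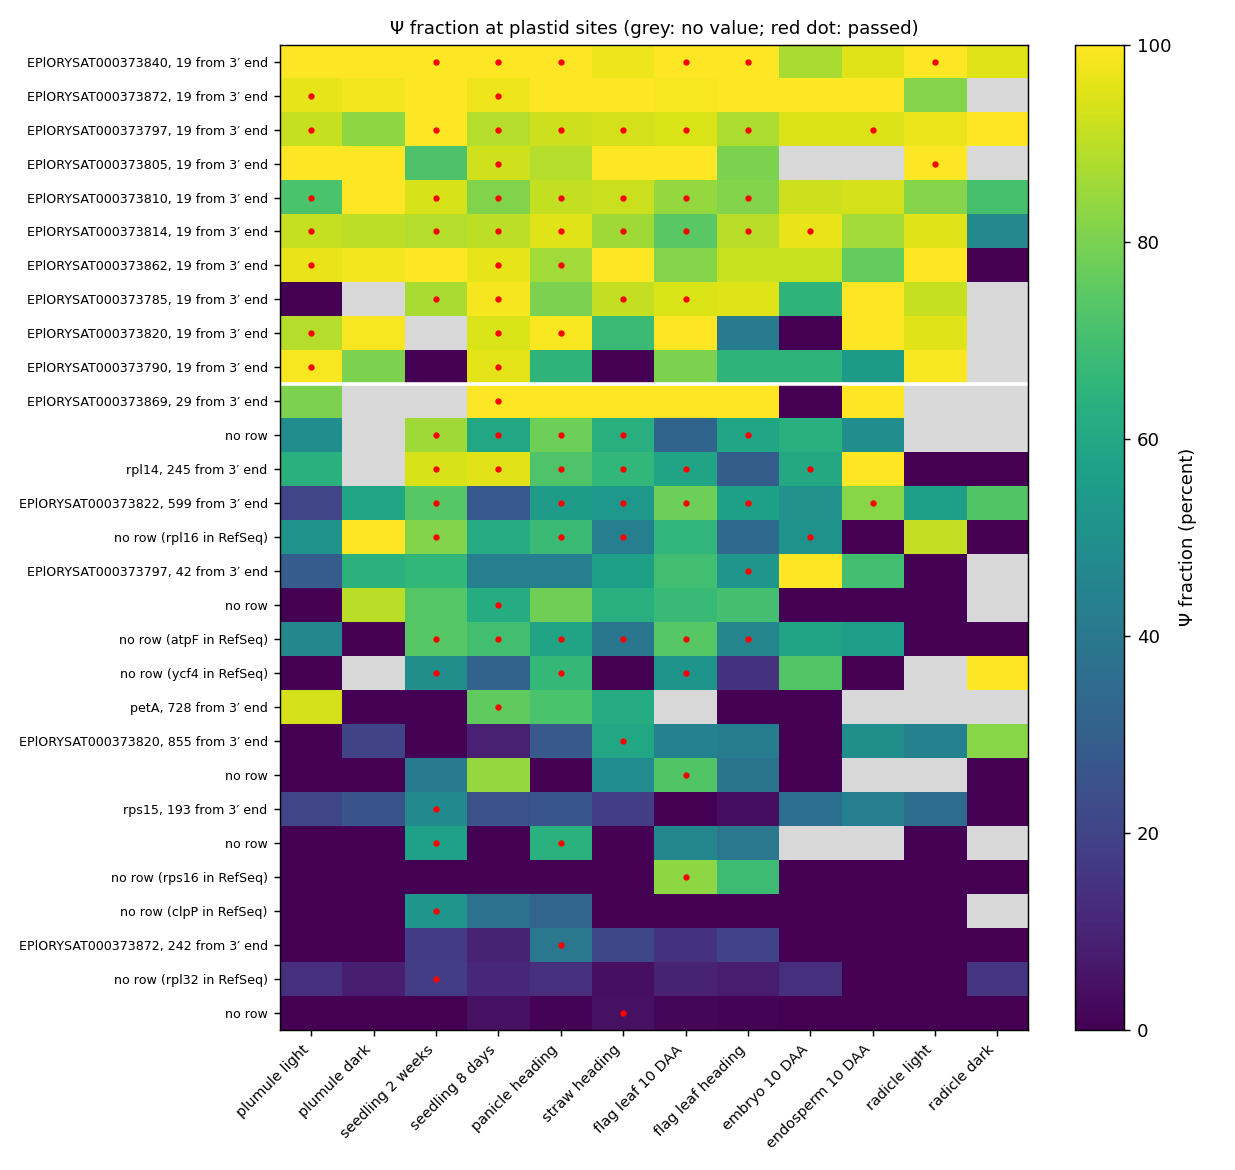
Ψ fraction in percent at the 29 plastid sites (rows) in 12 groups (columns). Grey marks no value, a red dot a site that passed the authors' filter in that tissue, and the white line separates the 10 sites at 19 bases from a 3′ end, above, from the other 19. The mean fraction of the upper set runs from 64.0% to 98.0%.

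The number of plastid sites that passed the authors' filter differed between tissues. It was 15 in seedling at 2 weeks against 16 at 8 days, 14 in panicle and 11 in straw against 8 in the heading-stage flag leaf. It was 11 in flag leaf at 10 DAA, 3 in embryo against 2 in endosperm, 2 in radicle in light against 0 in radicle in dark, and 7 in plumule in light, with no flag for plumule in dark. Of all sites that passed in a tissue, plastid sites were 0.842% in seedling at 2 weeks against 1.39% at 8 days. They were 0.873% in panicle and 0.643% in straw, against 0.490% in the heading-stage flag leaf. The share was 0.647% in flag leaf at 10 DAA, and 0.163% in embryo against 0.177% in endosperm, the reverse of their counts. It was 0.108% in radicle in light, 0% in radicle in dark and 0.477% in plumule in light. Seedlings at 8 days, with the largest share of plastid TPM, had the most passed sites and radicles in dark, with the smallest, had 0. The order in between was not the same, since flag leaf at heading had a larger share than panicle and fewer passed sites. The part of plastid RNA amount in these counts was not tested.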

How the data were processed

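The expression table deposited by the authors gave TPM for 38978 genes in 24 libraries, and the site table gave a Ψ fraction per tissue pooled over replicates and a flag from a p-value-based filter. Reads had been mapped to IRGSP-1.0; the counting behind the TPM is not given in the sources used here. The 60 samples (24 input, 36 treated) were grouped by tissue, age and light. Entries on chromosome Pt were extracted, and TPM times length was divided by the commonest low step of a library to give read equivalents.

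The values being TPM, limma 3.58.1 (R 4.3.3, trend) was run on log2(TPM + 1) over genes at 1 TPM or more in 2 libraries, with 23 libraries, group as the only term and Benjamini-Hochberg adjustment over 29942 genes at 0.05. Fold changes on this scale understate those of low genes. Named genes were a list of 37 symbols, of which those with an entry were used, the highest entry of each functional group, and the 3 largest rises and falls with non-overlapping libraries in each comparison (non-overlap was not asked of the interaction). The symbol rbcL had no entry, so its likeness ranking was not run, and marker lists by nuclear symbol were not used because 1 identifier matched the names. Make-up is given in read equivalents rather than TPM, in which opening exons weigh heavily. One gene that this rule names is not reported here. Sums and sites were not tested. Members and lists were chosen with earlier results of these data known. Steps were tested on simulated data. Alternatives were pseudocounts of 0.1 and 5, no filter, rescaling to nuclear genes, quantile normalization, fewer groups, averaged pairs, a replicate block and left-out libraries; voom, further averaging and the exchange of radicle light replicates were added after seeing the data. Python 3.11.15, pandas 2.3.3, NumPy 2.4.6, SciPy 1.17.1 and matplotlib 3.10.9 were used.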

Additional observations from a re-analysis of the deposited data

Results flagged for a closer look

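The interaction test in limma gave a larger light effect in plumule than in radicle for 37 plastid entries, against 14.5% of all genes, and a smaller one for 6, against 8.66%. The radicle light arm is 1 library, whose spread is taken from the other groups, and voom weights gave 8 and 3 with a plastid median of 0.09. Among entries called, the largest positive differences on the log2 scale were 3.53 for rps16, 3.49 for rpl16 and 3.31 for the RNA entry EPlORYSAT000373851. The largest negative ones were -3.97 for the RNA entry EPlORYSAT000373805 (-3.975 unrounded), which turned to 0.34 with radicle light replicate 1 in place of replicate 2, -3.96 for the tRNA entry EPlORYSAT000373867, which rests on 1.78 read equivalents in 1 library, and -3.43 for the RNA entry EPlORYSAT000373846. These entries are between 9 and 75 bases long, and the size of their differences depends on the pseudocount where a group is at 0. The rps16 entry was not called in plumule, where its log2 change was 0.77 and the libraries overlapped. Its change in radicle was -2.76, from a value of 0 in light replicate 2, and turned to 0.34 with replicate 1.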

How the results depend on the processing

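Counts of plastid entries called higher or lower kept within 1.5 times of the reported ones under most alternatives, and the exceptions were these. With a pseudocount of 0.1 TPM, 6 entries fell in radicle light, 1 was lower in leaf than root, 4 were higher in seedlings at 2 weeks and 15 were lower in panicle. With a pseudocount of 5 TPM, 0 fell in radicle light. Without the filter, 1 fell in plumule light and 1 was lower in leaf than root. Quantile normalization, which moved the all-gene median log2 change to 0.011 in plumule, -0.01 for leaf against seed and -0.079 for panicle, gave 8 lower in leaf than seed and 9 higher and 43 lower in panicle. It turned rpoC1 (-0.69), rpoC2 (-0.31) and ndhF (-0.62) in panicle and rpoB in straw (-0.49). Fits of only the compared groups gave 0 and 0 in radicle, 4 lower in leaf than root, 5 higher in seedlings at 2 weeks and 6 higher in flag leaf at 10 DAA. With both radicle light replicates, 8 rose in radicle light, 1 had a smaller light effect in plumule and 0 were lower in leaf than root.

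With the plumule pairs averaged, 34 rose in plumule light. Fewer genes were called over the whole table in that fit as well. Further alternatives were chosen after seeing the data. Averaging the endosperm pair too gave 33, and 1 lower in leaf than root. Radicle light replicate 1 in place of replicate 2 gave 12 that rose and 1 that fell in radicle, 2 with a smaller light effect in plumule and 0 lower in leaf than root. It turned rps16 in radicle (0.34) and, for the difference of light effects, psbD (-0.20), psbC (-0.08), rps14 (-1.04) and EPlORYSAT000373805 (0.34). For rps14 the pseudocount of 0.1 TPM gave a log2 value of -1.475. The voom weights gave 7 and 0 in radicle, 8 and 3 for the difference of light effects, 8 lower in leaf than root, 6 lower in embryo and 4 higher in seedlings at 2 weeks, and turned petD in embryo (0.37). The causes of these changes were not tested.

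Leaving out 1 library at a time gave 5 to 7 higher in seedlings at 2 weeks, 0 to 2 lower in leaf than root (0 without flag leaf at heading replicate 1), 10 to 17 lower in embryo (10 without endosperm replicate 1) and 1 to 5 lower in radicle light (1 without radicle dark replicate 1, 5 without replicate 2). Where a group is then 1 library it is assumed to vary like the others, and without radicle light replicate 2 its comparisons have no value. Same-numbered libraries did not deviate together (r between -0.0539 and 0.0306 over 55 pairs), and with a replicate block 52 entries rose in plumule light, 17 in radicle light, 76 were higher in leaf than seed and 79 higher in leaf than root. Of 5212 single-entry results under alternatives, 4838 kept direction and side of the threshold, 283 lost the call, 80 gained one and 11 turned. Depth limits the radicle most, with 124 plastid read equivalents in light replicate 2.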
